A study of Mus musculus with 4 samples.

Results

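The receptors, ligands and adaptors of the TACI and BAFF system were examined in naive CD4+ T cells of mice lacking TACI. TACI is encoded by Tnfrsf13b. The set was chosen by name, with earlier results of these data known. It holds 10 genes, namely the receptor genes Tnfrsf13b (TACI), Tnfrsf13c (BAFF receptor) and Tnfrsf17 (BCMA), the ligand genes Tnfsf13 (APRIL) and Tnfsf13b (BAFF), and the adaptor genes Traf2, Traf3, Traf5, Traf6 and Myd88. Of these, 8 had a probe set annotated to that gene alone, out of 22180 such genes on the array, and each of the 8 had 1 such probe set. Tnfsf13 is annotated only on a probe set it shares with other genes and Traf3 on none, so both were not analysed here. Traf5 is also listed on a second probe set that carries another gene's symbol, which was not used.

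Cells came from TACI-/- mice and, for comparison, from wild-type (WT) mice, both of strain C57BL/6. Each genotype was represented by 2 Affymetrix arrays of total RNA. In both genotypes the cells were sorted as CD4+, high for CD62L, low for CD44 and negative for CD25, from spleen and lymph node tissue. The labels do not give the TACI allele, the age of the mice, or how many mice stood behind an array. The deficiency was not stated to be limited to T cells, so other cells of the mouse may have lacked TACI too.

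TACI belongs to the tumour necrosis factor (TNF) receptor family. Its ligands BAFF and APRIL are cytokines best known as survival and differentiation factors of B cells. BCMA binds the same ligands, while the BAFF receptor binds BAFF. The cytoplasmic tail of TACI recruits TRAF adaptor proteins, and in B cells also MyD88, the adaptor of Toll-like and interleukin-1 family receptors, which lead to NF-kB. The BAFF receptor works through TRAF3, whose removal frees the kinase NIK (Map3k14) and opens the noncanonical NF-kB branch.

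Values are log2 units of the authors' normalized probe set signal, and a difference is TACI-/- minus WT on that scale. A gene was tested with limma where at least 2 arrays reached a low-value filter. It was set at the 40th percentile, on each array, of the probe sets annotated to 1 gene. That filter lay at 3.74 and 3.77 on TACI-/- arrays and at 3.74 on both WT arrays. A call was a Benjamini-Hochberg adjusted p under 0.05 over the 13782 genes tested. Array medians, taken over all probe sets, ranged from 4.11 to 4.13. With 2 arrays per genotype, the precision is limited by their number, and sequencing depth does not apply. The sorted cells carried T cell transcripts: all 10 measured T cell markers were at or above the filter on all 4 arrays, with Cd4 at 10.57 and 10.45 on TACI-/- arrays and 10.64 and 10.46 on WT arrays. Among these 10, 7 had a negative difference and 3 a positive one, and none passed. Their median difference was -0.12, beside 0.01 over all tested genes. For 5 of the 10 the groups did not overlap, beside 38.7% of all tested genes. In TACI-/- cells 4 of these 5 were lower, such as Cd3d (-0.30), and 1 was higher, Cd28 (0.51). Of the markers of the sort, Cd44 and Il2ra (CD25) had log2 differences of 0.19 and 0.29 and did not pass (limma adjusted p = 0.766 and 0.715). Of 10 CD8 T and NK cell markers, 5 were tested and none passed. An unadjusted limma p under 0.05 was found for 3 of the 5, in mixed directions. That is 60%, beside 8.78% of all tested genes. Cd8b1, a chain of the CD8 coreceptor, was at 6.11 and 5.73 on TACI-/- arrays and at 6.55 and 6.59 on WT arrays, while the other chain gene, Cd8a, was below the filter on every array. The receptor gene Klrd1 had a difference of -0.87 and Eomes, a transcription factor gene of cytotoxic cells, 0.79. The mean over all 10 markers was 4.30 and 4.33 on TACI-/- arrays and 4.25 and 4.47 on WT arrays. That mean takes in 5 markers not past the filter and differences of opposite sign, so it does not show equal levels.

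None of the 6 tested members passed the threshold for a call between the genotypes. The call rate over all genes tested was 0.138%, and 0 of 6 is close to that background. At an unadjusted limma p under 0.05 the members again gave 0 of 6, where 8.78% of all tested genes met that level. The 95% intervals of the 6 members reached no further than 1.57-fold higher (Tnfrsf13c) and 1.39-fold lower (Tnfsf13b) in TACI-/- cells. Their differences ran from -0.13 to 0.30, with a median of 0.06 against 0.01 over all tested genes. The median size of the difference, sign aside, was 0.12 for the members and 0.13 over all tested genes. An exact permutation of 2 arrays against 2 cannot give a two-sided p below 0.333, so the fitted values rest on the spread shared across genes.

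**Figure D1:**
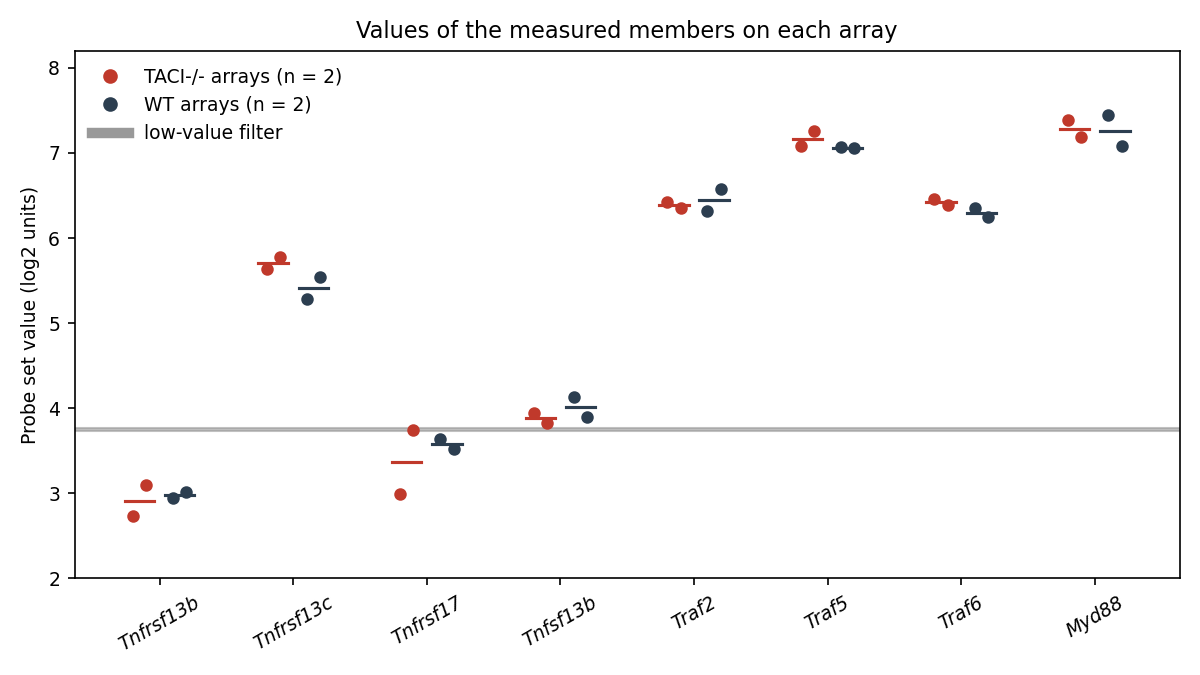
Log2 value of each of the 8 measured members (x axis) on each array (y axis), TACI-/- arrays in red and WT arrays in dark blue, n = 2 each, with a bar at each mean and a grey band over the low-value filter of 3.74 to 3.77. Every value of Tnfrsf13b and Tnfrsf17 is below the filter of its own array. That of Tnfrsf17 on TACI-/- replicate 2, 3.74 against a filter of 3.77, lies within the band. Heights of different genes are not comparable, since probe sets differ in brightness.

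Among the receptors, the targeted gene itself was dim in both genotypes. Tnfrsf13b was at 2.73 and 3.09 on TACI-/- arrays and at 2.95 and 3.02 on WT arrays. Every value was below the filter, and the TACI-/- values lay on either side of the WT values. The mean was 2.91 ± 0.26 in TACI-/- cells and 2.99 ± 0.05 in WT cells (SD, n = 2 each). WT T cells thus gave no Tnfrsf13b signal above the filter from which a loss could be measured, and the values do not check the genotype labels. In RNA from a bulk sample, few cells with the transcript and little transcript per cell cannot be told apart. The values also come from 1 probe set. Neither its response to the transcript nor its position relative to the altered part of the gene is given in the sources used here. A dim value is therefore not a measure of how much Tnfrsf13b transcript was present.

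Tnfrsf17 encodes BCMA, a receptor found mainly on plasma cells. It was at 2.99 and 3.74 on TACI-/- arrays and at 3.64 and 3.52 on WT arrays. All 4 values were below the filter of their array. The TACI-/- values were 0.75 apart and enclosed both WT values, so no direction was measured. Of 7 plasma cell markers 5 were tested and 1 rose, Irf4, a transcription factor gene that stimulated T cells also induce (limma adjusted p = 0.0246, or 0.052 when the filter was dropped). Over all tested genes 0.109% rose. Xbp1, a transcription factor of secretion, had a log2 difference of 0.02, and Jchain, which joins immunoglobulin polymers, was below the filter on all 4 arrays.

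Tnfrsf13c was the receptor gene measured above the filter. Its values were 5.64 and 5.78 on TACI-/- arrays and 5.29 and 5.54 on WT arrays. Both TACI-/- values were above both WT values, with the closest arrays 0.09 apart. The means were 5.71 ± 0.10 in TACI-/- cells and 5.41 ± 0.18 in WT cells (SD, n = 2 each), a log2 difference of 0.30 ± 0.15 (SE). That is 1.23-fold, with a 95% interval from 0.956 to 1.57. It had the lowest p of the tested members but did not pass (limma unadjusted p = 0.0931). Its limma adjusted p was 0.65. Without WT replicate 1 the difference was 0.17, and without WT replicate 2 it was 0.42.

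The BAFF receptor is abundant on B cells, and B cell markers were measured beside it. Of 24 listed markers, 20 were measured and 13 passed the filter. One of these, Ly86, the partner of the surface receptor RP105, reached the filter only on the TACI-/- arrays, at 4.33 and 3.91 against 3.22 and 3.51 on WT arrays, so its direction was tied to its being tested. Of the other 12, 10 had a positive difference, or 83.3%, beside 51.9% of all tested genes that reached the filter in both genotypes. None passed over all genes, and 3 of the 12 had an unadjusted limma p under 0.05, or 25%, beside 7.84% of those genes. These were the MHC class II genes H2-Aa (0.57) and H2-Ab1 (0.53) and the B cell scaffold gene Bank1 (0.44), all higher in TACI-/- cells. The B cell transcription factor gene Pax5 was at 4.28 and 4.33 on TACI-/- arrays and at 4.09 and 3.97 on WT arrays. The signalling subunit Cd79a was at 5.08 and 5.09 in TACI-/- cells and at 4.63 and 4.96 in WT cells. In contrast, Ms4a1 (CD20), Blk, Blnk, Ebf1 and Spib were below the filter on all 4 arrays, and Ighm had a difference of -0.28. The tested markers Cd22, Pou2af1 and Ralgps2 had differences of 0.03, 0.02 and -0.05, and their groups overlapped.

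The mean over all 20 measured B cell markers was 4.83 and 4.51 on TACI-/- arrays and 4.40 and 4.46 on WT arrays. The highest array differed: TACI-/- replicate 1 for the marker mean and TACI-/- replicate 2 for Tnfrsf13c. The lowest was WT replicate 1 for both. The part of these markers in the Tnfrsf13c values was not tested. Over the 4 arrays, the tested gene whose centred profile lay nearest to that of Tnfrsf13c was Stard6, at a Euclidean distance of 0.02 log2 units, with Tsc1 among the nearest 5 at 0.03. Of those 5 genes, 0 were in the B cell list, which held only 13 of the 13782 tested genes. With so few listed, that count does not bear on the source of the Tnfrsf13c values. With 13782 candidates and 4 arrays, such closeness is a description only.

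**Figure D2:**
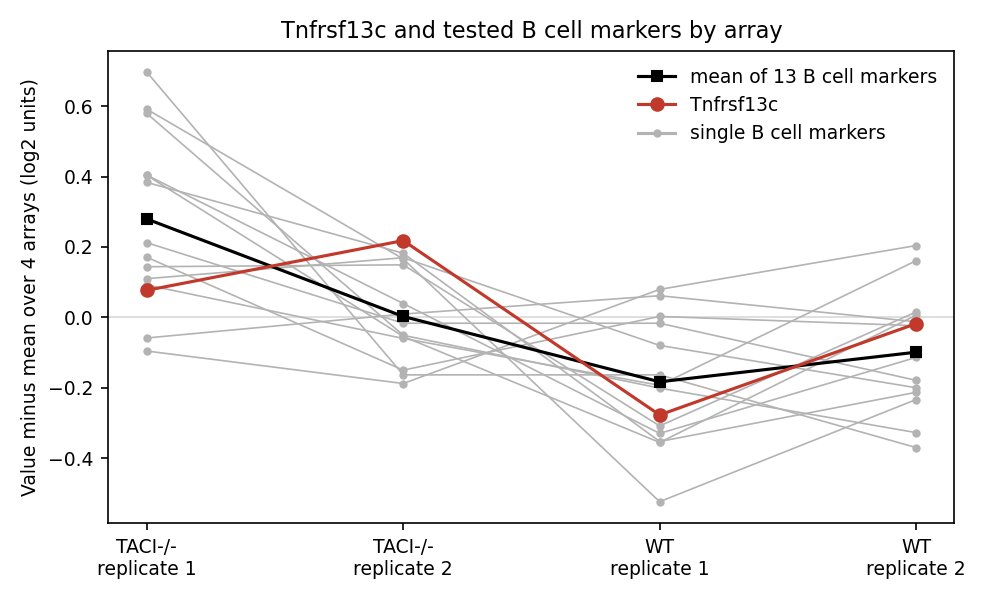
Value minus the gene's mean over the 4 arrays, in log2 units (y axis), on each array (x axis) for Tnfrsf13c (red), the 13 tested B cell markers, Ly86 included (grey) and their mean (black); lines join the values of 1 gene and imply no order. Tnfrsf13c and the marker mean are higher on both TACI-/- arrays than on either WT array, with their highest values on different TACI-/- arrays.

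Of the ligands, BAFF is produced chiefly by myeloid and stromal cells. Its gene Tnfsf13b was at 3.94 and 3.82 on TACI-/- arrays and at 4.13 and 3.90 on WT arrays. All 4 values were close above the filter, and the genotypes overlapped. The means were 3.88 ± 0.08 in TACI-/- cells and 4.02 ± 0.16 in WT cells (SD, n = 2 each), a log2 difference of -0.13 ± 0.15 (SE, limma adjusted p = 0.855). With the filter at the 60th percentile this gene was no longer tested. Myeloid and dendritic cell markers were mostly dim, with 10 of 17 measured markers not past the filter. Among the 7 tested, Lyz2 (lysozyme) was at 3.96 and 4.15 on TACI-/- arrays against 4.64 and 4.44 on WT arrays, while Cd68, a lysosomal glycoprotein of macrophages, had a difference of 0.71. Neither passed (limma adjusted p = 0.459 and 0.323). Of the 7, 3 had an unadjusted limma p under 0.05, or 42.9%, beside 8.78% of all tested genes. Cd68 was higher in TACI-/- cells, while Lyz2 and Ly6c2 (-0.41) were lower. The mean over all 17 markers was 3.82 and 3.78 on TACI-/- arrays and 3.90 and 3.86 on WT arrays. That mean takes in 10 markers not past the filter and differences of opposite sign, so it does not show equal levels. The part of myeloid and dendritic cells in the Tnfsf13b values was not tested.

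All measured adaptors were above the filter on all 4 arrays. Traf2 encodes a RING-domain adaptor that brings the ligases cIAP1 and cIAP2 to receptors. It was at 6.42 and 6.35 on TACI-/- arrays and at 6.31 and 6.58 on WT arrays. The TACI-/- values lay between the WT values. The log2 difference was -0.06 ± 0.15 (SE), and its 95% interval ran from 0.75-fold to 1.23-fold.

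Traf5 encodes a close relative of TRAF2 that several costimulatory receptors of T cells bind. It was at 7.08 and 7.25 on TACI-/- arrays and at 7.07 and 7.06 on WT arrays. The groups did not overlap, yet the closest arrays were 0.01 apart and the TACI-/- arrays 0.17. The log2 difference was 0.11 ± 0.14 (SE, limma adjusted p = 0.889). Without TACI-/- replicate 2 it was 0.02.

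Traf6 encodes the ubiquitin ligase that serves both TNF receptor family members and MyD88-dependent receptors. It was at 6.46 and 6.39 on TACI-/- arrays and at 6.35 and 6.24 on WT arrays. The groups did not overlap, with the closest arrays 0.04 apart. The log2 difference was 0.13 ± 0.13 (SE), with a 95% interval from 0.88-fold to 1.36-fold (limma adjusted p = 0.841).

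Myd88 was at 7.39 and 7.18 on TACI-/- arrays and at 7.44 and 7.08 on WT arrays. The values of both genotypes overlapped fully, and the arrays of 1 genotype differed by 0.20 and 0.36. The log2 difference was 0.02 ± 0.17 (SE), with a 95% interval from 0.767-fold to 1.35-fold. Its direction changed without TACI-/- replicate 1 (-0.08) and without WT replicate 2 (-0.15). For Traf2 it changed without WT replicate 2 (0.075).

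Groups that did not overlap were found for 3 of the 6 tested members, Tnfrsf13c, Traf5 and Traf6, all higher in TACI-/- cells. Over all tested genes 38.7% had groups that did not overlap, 20.5% higher and 18.1% lower in TACI-/- cells. Counted in either direction, the members' share of 50% is near that background. Counted by direction, 3 of 6 were higher beside 20.5%, and 0 of 6 lower beside 18.1%. With 6 members these counts are not read as a result. For Tnfrsf13b, Tnfrsf17 and 4 of the 6 tested members, Tnfsf13b, Traf2, Traf5 and Myd88, the genotype difference was smaller than the wider gap between arrays of 1 genotype.

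**Figure D3:**
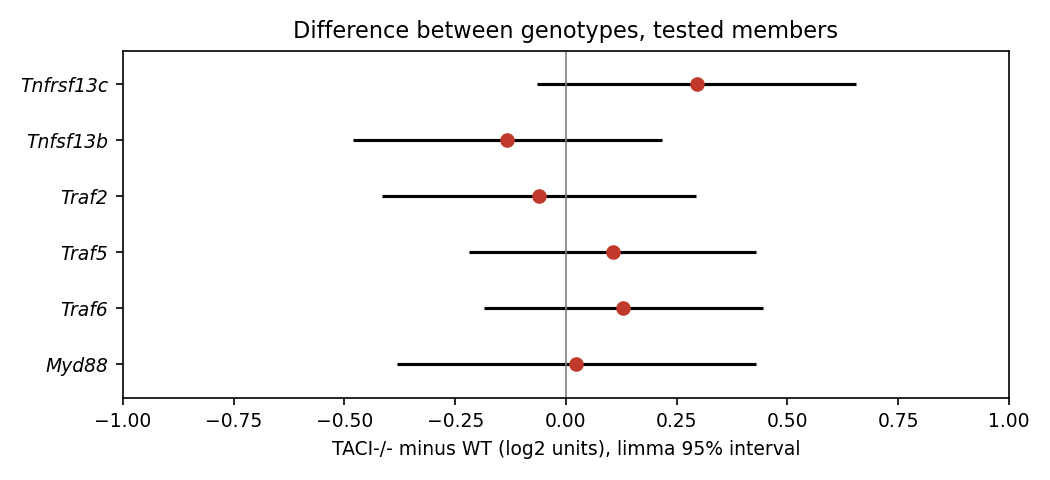
TACI-/- minus WT difference in log2 units (x axis) for the 6 tested members (rows), with points at the estimate and bars over the limma 95% interval. Every interval includes 0, and the highest bound, that of Tnfrsf13c, lies at 0.66.

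The upstream sequences of the 3 members whose groups did not overlap are shown, since NF-kB is the pathway downstream of TACI. Each is the 250 bases before a RefSeq start site (GRCm38.p6) on the strand of the gene, 5′ to 3′, and no RefSeq gene spans any of the 3 windows. They lie at chr15:82224381-82224630 (minus strand) for Tnfrsf13c, chr1:192092600-192092849 (minus strand) for Traf5 and chr2:101678170-101678419 (plus strand) for Traf6. Capitals mark matches to GGGNNNNNCC, a loose form of the NF-kB site, on either strand, and overlapping matches are merged.
Tnfrsf13c: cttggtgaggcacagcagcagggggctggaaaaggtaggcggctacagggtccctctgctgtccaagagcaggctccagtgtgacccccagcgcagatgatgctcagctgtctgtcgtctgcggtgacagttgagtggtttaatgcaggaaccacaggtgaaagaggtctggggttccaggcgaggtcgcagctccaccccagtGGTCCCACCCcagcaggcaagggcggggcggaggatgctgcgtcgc
Traf5: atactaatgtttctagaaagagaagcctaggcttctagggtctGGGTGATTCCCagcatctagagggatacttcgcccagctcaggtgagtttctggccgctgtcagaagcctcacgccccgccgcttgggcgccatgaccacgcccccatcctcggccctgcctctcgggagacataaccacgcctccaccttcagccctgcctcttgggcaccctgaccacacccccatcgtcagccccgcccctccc
Traf6: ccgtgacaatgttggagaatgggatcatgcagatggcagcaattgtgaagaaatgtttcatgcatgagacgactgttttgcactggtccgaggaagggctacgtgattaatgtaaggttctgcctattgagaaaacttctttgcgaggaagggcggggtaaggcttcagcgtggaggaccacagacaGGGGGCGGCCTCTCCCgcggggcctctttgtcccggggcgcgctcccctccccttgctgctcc

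Tnfrsf13c held 1 match, starting at -46 from the start site on the other strand, while Traf5 and Traf6 held 2 each that overlap. Across the set, 7 of the 10 members had a match in a window of 250 bases, and Tnfrsf17, Tnfsf13b and Myd88 had none. Such a match occurs in 45.8% of the 32851 windows of the same length in the RefSeq table. The GC box letters GGGCGG, which occur in 32.7% of windows, were found on 1 strand or the other in all 3 sequences above. A match of letters is not a binding site, and no binding was measured in these cells.

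Genes that act around the members were described as lists. Of 14 genes for related family members, ligand processing and receptor shedding, 9 were tested and 0 passed, with a median difference of 0.02. Adam17, a protease that releases surface receptors, was at 6.91 and 6.61 on TACI-/- arrays and at 6.34 and 6.49 on WT arrays (log2 difference 0.34). Aph1a, a subunit of the gamma-secretase that cleaves BCMA, had 0.28. Tnfrsf12a, the receptor of the related ligand TWEAK, had -0.29. Furin, the protease that cleaves BAFF and APRIL precursors, had 0.15. Sdc2 and Sdc4, heparan sulfate proteoglycans of the kind that APRIL binds, were below the filter on all 4 arrays.

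Of 16 other TRAF family and TRAF-interacting genes, 14 were tested and 1 rose, Tnfaip3 (0.109% of all tested genes rose). It encodes A20, which removes ubiquitin chains built by TRAF6 and limits NF-kB. Tnfaip3 was at 9.38 and 9.23 on TACI-/- arrays and at 7.91 and 7.69 on WT arrays. Both TACI-/- values were far above both WT values, with a log2 difference of 1.51 ± 0.15 (SE, limma adjusted p = 0.0288). With no low-value filter its limma adjusted p was 0.0565. Without any 1 of the 4 arrays, or without moderation of the variance, 0 genes of the whole table passed, with counts at an unadjusted limma p under 0.05 from 721 to 1145. The remaining TRAF genes did not pass: Traf1, an NF-kB target, was at 7.31 and 7.35 on TACI-/- arrays and at 7.29 and 7.19 on WT arrays, and Traf4 had a difference of 0.09. Traf7 had 0.27, Traf3ip3, which encodes a TRAF3-interacting protein of lymphocytes, -0.29, and Otud7b, which removes ubiquitin from TRAF3, 0.21. The list median was 0.05.

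The noncanonical branch, which the BAFF receptor uses, held 5 tested genes of 6 listed, and none passed. All 5 differences were positive but small, from 0.08 to 0.19 with a median of 0.12. Of all tested genes that reached the filter in both genotypes, 51.9% had a positive difference. Map3k14 (NIK) was at 5.88 and 5.95 on TACI-/- arrays and at 5.82 and 5.77 on WT arrays. Birc3 (cIAP2), a ligase bound by TRAF2, was at 7.28 and 7.29 on TACI-/- arrays and at 7.05 and 7.20 on WT arrays. For both genes, 2 of the 5 tested, the groups did not overlap, which is near the 38.7% of all tested genes. Nfkb2 and Relb, the transcription factor subunits of the branch, had differences of 0.19 and 0.08, and their groups overlapped. The limma adjusted p of these 4 genes lay between 0.796 and 0.925.

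The canonical IKK and NF-kB list had 16 tested genes, with a median of 0.03, and none passed. Rel, the c-Rel subunit of lymphocytes, had the lowest p: it was at 8.24 and 8.30 on TACI-/- arrays and at 7.94 and 7.78 on WT arrays, a difference of 0.41 (limma unadjusted p = 0.0204, adjusted p = 0.496). Rnf31, of the linear ubiquitin ligase, had 0.27, and the inhibitor genes Nfkbib and Nfkbia had 0.27 and 0.17. Map3k7 (TAK1), the kinase that TRAF6 activates, had 0.07.

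Of 31 genes of the MyD88 branch, 28 were measured and 18 tested, and none passed. The median was 0.01. The Toll-like receptor inhibitor gene Tollip had a difference of 0.40 and Tlr6 one of 0.35 (limma adjusted p = 0.549 and 0.565). Tlr5, the flagellin receptor gene, was at 3.92 and 4.30 on TACI-/- arrays and at 5.07 and 4.33 on WT arrays, with the closest arrays of the 2 genotypes nearly equal. Irak2, a kinase downstream of MyD88, had 0.31, while Irak1, its relative, had 0.00. Tlr3, Tlr4, Tlr8 and Tlr13 and the interleukin-1 receptor gene Il1r1 were below the filter on all 4 arrays.

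Receptors of the same family that bind TRAF adaptors were higher by value in some cases, although none of the 11 tested passed. Tnfrsf9 (4-1BB), a receptor induced on stimulated T cells, was at 6.18 and 5.86 on TACI-/- arrays and at 5.25 and 5.24 on WT arrays, a difference of 0.77 (limma adjusted p = 0.256). Tnfrsf8 (CD30) had 0.59, Tnfrsf18 (GITR) 0.50 and Tnfrsf4 (OX40) 0.43, with limma adjusted p from 0.515 to 0.568. These 4 had an unadjusted p under 0.05, 36.4% of the list, beside 8.78% of all tested genes. The list median was 0.04, and Cd27 and Ltbr had -0.19 and -0.26. Regulatory T cells express 4-1BB, GITR and OX40, and 8 markers of these cells were measured, 6 of them tested. Ikzf2 and Tigit reached the filter only on the TACI-/- arrays, so that their direction was tied to their being tested. Of the other 4, Ctla4, an inhibitory receptor gene, rose (limma adjusted p = 0.0246, or 0.052 when the filter was dropped), beside 0.109% of all tested genes. Foxp3, the lineage transcription factor gene, had a difference of 0.58 and did not pass (limma adjusted p = 0.354). Il2ra had 0.29 and Capg -0.15, and for both the groups overlapped (limma adjusted p = 0.715 and 0.873). The mean over all 8 measured markers of that list was 4.69 and 4.45 on TACI-/- arrays and 4.01 and 3.95 on WT arrays. Nrp1 and Itgae were below the filter on all 4 arrays. The part of these cells in the receptor values was not tested.

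**Figure D4:**
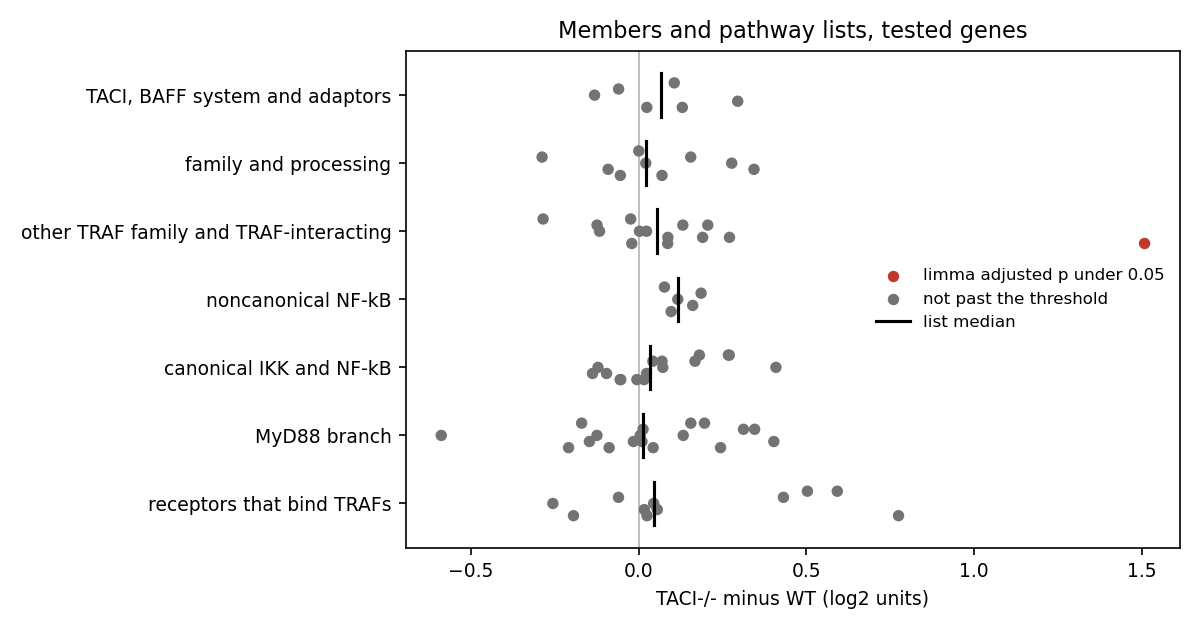
TACI-/- minus WT difference in log2 units (x axis) for each tested gene of the members and of 6 pathway lists (rows), red where limma adjusted p was under 0.05, with a black bar at each list median. Tnfaip3 at 1.51 is the red point; list medians lie between 0.01 and 0.12.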

How the data were processed

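The deposited table held 1 log2 value per probe set and array for 41345 probe sets on 4 arrays. The submitters' processing notes name RMA and Partek and give no version or role for either. The base of the logarithm is not stated and was taken as 2 from RMA and the range of the values. Background correction could not be varied, because scanner files were not analysed here, and array batches are not given in the sources used here. No 2 arrays shared more than 0.44% identical values.

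Probe sets with 1 gene symbol in the platform annotation (23521) were kept, and 1814 with several were not used. The brightest probe set over the 4 arrays stood for a gene. Genotypes were compared over 13782 genes by two-sided tests in limma 3.58.1 (R 4.3.3; eBayes after lmFit, Benjamini-Hochberg), with genotype as the only term and 4.59 prior degrees of freedom. The fit was also run on simulated data. These were drawn from its own variance model, so they check the code and not how that model suits these arrays. Members below the filter were given values and no test in the main fit. Named genes were all members, up to 4 genes per list with the lowest p, the sort markers, 4 B cell markers and genes with profiles nearest to that of Tnfrsf13c. Other genes named were chosen after their values were seen, for their known role. The members and lists were chosen with earlier results of these data known. The titles call the replicates biological, but nothing ties an array to 1 mouse, so p-values measure only the spread between these samples. Upstream sequences are from RefSeq, in which 10 of 10 members had an entry.

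Alternatives were other filters, scalings, variance models, the mean over probe sets, the replicate number as a block, and leaving out each array.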

Additional observations from a re-analysis of the deposited data

How the results depend on the processing

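Under the 14 alternatives the count of members past adjusted p 0.05 was 0 throughout, and the count with an unadjusted limma p under 0.05 was also 0. The number of members tested ranged from 5 (filter at the 60th percentile) to 8 (no filter). Of 83 differences of the 6 members of the main fit under these alternatives, 80 kept their sign. The other 3 came from leaving out an array: Myd88 then ranged from -0.15 to 0.20 and Traf2 from -0.19 to 0.075. The cause was not tested. The count of genes past the threshold, 19 of those tested, was 3 with no filter, 45 with the filter at the 60th percentile, 46 with a variance trend and 0 without variance moderation, where 986 had an unadjusted p under 0.05. Without any 1 array it was 0, and the count at an unadjusted p under 0.05 then ranged from 721 to 1145. With the replicate block the count was 13; the replicate numbers pair nothing in the labels, the deviations of same-numbered arrays correlated at -0.03, and the block changed no member's call. Tnfrsf13b and Tnfrsf17 were below the filter on all 4 arrays, so a loss could not be measured for either. With no filter both were fitted and neither passed (limma adjusted p = 0.959 and 0.894).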
